A study of Mus musculus with 9 samples.

Results

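The genes examined here encode the feedback arm of the ERK pathway, in which a signal switches on its own inhibitors and targets. They were 10 genes chosen by name: the Sprouty genes Spry1, Spry2 and Spry4, the Sprouty-related genes Spred1 and Spred2, the dual specificity phosphatase genes Dusp4, Dusp5 and Dusp6, and the ETS transcription factor genes Etv4 and Etv5. A member was any probe set of the array whose only gene symbol was 1 of these, which gave 28 of 45101 probe sets, and 10 of the 18194 genes that a probe set named alone. Expression was measured in mouse ovarian surface epithelial (MOSE) cells, which came from C57BL6 mice and transformed spontaneously during long culture. MOSE-E cells, the early and non-malignant stage, were taken at passages 13, 14 and 15, MOSE-I cells, the intermediate stage, at passages 63, 71 and 73, and MOSE-L cells, the late and malignant stage, at passages 136, 142 and 143. The labels call the 3 cultures of a stage biological replicates, and each was hybridised to 1 array. All 9 cultures belonged to 1 series of cells grown in the same serum-containing medium with insulin, transferrin and selenite, so the p-values measure the spread between cultures of that series, and stage cannot be told apart from passage number.

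Growth factors bind receptor tyrosine kinases, which load RAS with GTP, and RAS then drives the kinases RAF, MEK and ERK in turn. Active ERK raises the transcription of genes whose products brake the same route. Sprouty proteins hold back signalling between the receptor and RAF, Spred proteins bring the RAS inactivator neurofibromin to the membrane, and the dual specificity phosphatases take the activating phosphates off ERK itself. Etv4 and Etv5 are transcription factors of the PEA3 group, whose mRNAs rise with growth factor signalling. Because these mRNAs follow ERK activity in many cell types, their levels are often read together as a record of pathway output. No ERK phosphorylation was measured on these arrays.

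The deposited values were linear array signals, scaled by the authors to a trimmed mean of 500 on every array. Of the 10 genes, 8 had a probe set whose highest signal passed 500 and were tested, while Spry1 and Etv4 stayed below it and are given as values. These 8 genes had 10 probe sets past this filter, 3 of them for Spred1, and a gene is represented by the brightest. Spry4 passed only through its MOSE-L arrays, and Etv5 and the dimmest tested Spred1 probe set only through MOSE-L replicate 3. The filter itself therefore favoured a difference in each of these. Changes are differences in log2(signal + 50), a scale that understates the fold of dim genes, and were tested with limma over all 13845 probe sets past the filter. To be called, a probe set needed a Benjamini-Hochberg adjusted p no higher than 0.05 together with a log2 change of at least 1 in size. A value after ± is the SE for a log2 change and the SD for a mean signal (n = 3). On RNA of whole cultures, a change in the share of cells that express a gene and a change in its RNA per cell cannot be told apart.

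Median signals per array lay between 93.2 and 130.0. The 9 listed markers of ovarian surface epithelium were all over 500 on at least 1 array, although Cdh1 and Krt7 were at 93.3 or less and at 545 or less on every MOSE-L and MOSE-I array. In MOSE-L cells 5 of these 9 were called lower than in MOSE-E cells (Krt7, Cdh1, Krt8, Cdh2 and Krt19) and none higher, with a median log2 change of -1.11, while Wt1 (0.94) and Upk3b (0.59) had positive changes that were not called. Of all tested genes, 7.49% were called lower and 8.11% higher in this comparison. Cdh1 passed the filter through MOSE-E arrays alone, so the filter favoured its call. None of the 4 measured granulosa cell markers or of the 5 endothelial markers passed 500, and 1 of 5 leukocyte markers did, Csf1r, with Ptprc at 51.9 or less throughout. The summed signal of fibroblast and stroma markers, 5 of 7 of them over 500 somewhere, ranged over 51936 to 125379 for MOSE-E cells, 27706 to 80142 for MOSE-I cells and 36869 to 48644 for MOSE-L cells. The tested members of that list went opposite ways in MOSE-L against MOSE-E cells, with Dcn called higher (2.19) and Col1a2 (-6.98) and Col1a1 (-2.54) called lower. In MOSE-L cells the 3′ to 5′ signal ratio of the Actb control probe sets was 1.34 to 1.83, against 1.12 to 1.25 in MOSE-E cells, and in MOSE-I cells it was 1.31 to 1.38. The ratio of the Gapdh control probe sets ran the other way, at 0.727 to 0.739 in MOSE-L cells, against 0.744 to 0.773 in MOSE-E cells, and was 0.773 to 0.810 in MOSE-I cells. Their part in the results was not tested. MOSE-L replicate 3 had the highest Actb ratio and the lowest mean correlation with its own stage (0.898).

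Compared with MOSE-E cells, MOSE-L cells had higher mRNA levels of 3 feedback genes, Spry2, Spry4 and Dusp6, each with mean signals 2.31 to 2.68 times as high. Without Spry4, which the filter admitted through its MOSE-L arrays alone, 2 genes were called higher, Spry2 and Dusp6, both over 500 in every stage. No feedback gene was called lower. For 7 of the 8 tested genes the log2 change was above 0, the exception being Dusp5. Over all 7952 tested genes, 8.11% were called higher and 7.49% lower in this comparison. Between MOSE-I and MOSE-E cells none of the 8 was called in either direction, and the called differences all involved the MOSE-L arrays.

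**Figure D1:**
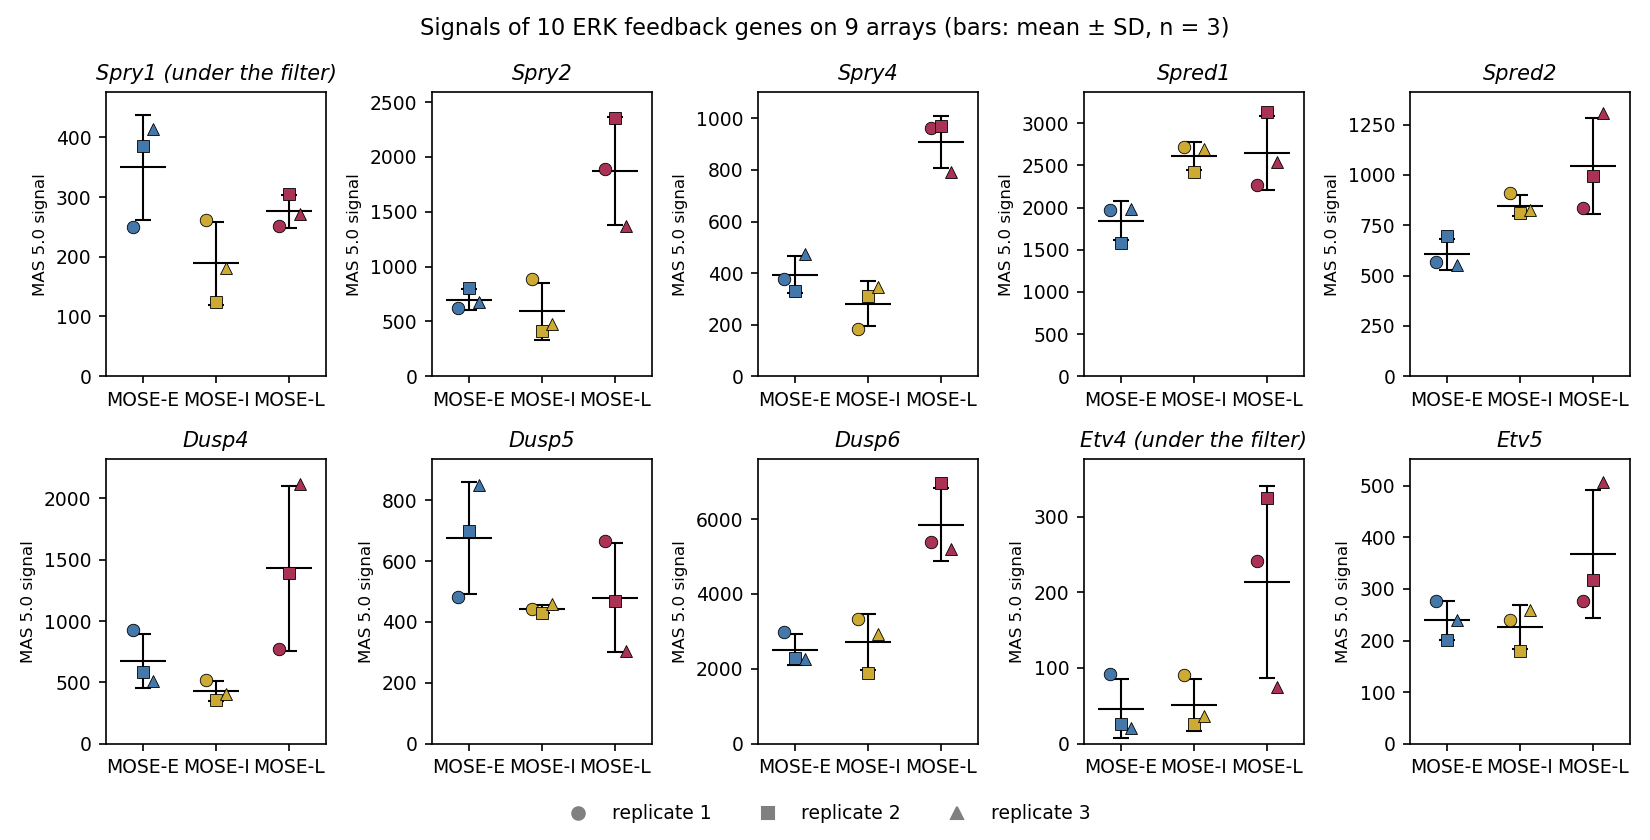
Linear MAS 5.0 signal of each of the 10 genes on the 9 arrays, 3 per stage, with symbols for replicates and bars for the mean ± SD (n = 3). All 3 MOSE-L arrays lie above every MOSE-E and MOSE-I array for Spry2, Spry4 and Dusp6, whereas Dusp5 has its highest arrays in MOSE-E cells.

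Promoter sequence is shown for Spry2 and Dusp6, which were higher in MOSE-L cells against both other stages, and for Dusp5, which was not, so that the stretches can be set side by side. Each runs 5′ to 3′ from 250 bases before to 50 bases after the RefSeq start of the gene on assembly GRCm38.p6. Spry2 lies at chr14:105896770-105897069 on the minus strand, Dusp6 at chr10:99262981-99263280 on the plus strand, and Dusp5 at chr19:53528895-53529194 on the plus strand. Capitals mark a GC box, GGGCGG on either strand, which begins 96 bases before the start of Dusp5.
Spry2: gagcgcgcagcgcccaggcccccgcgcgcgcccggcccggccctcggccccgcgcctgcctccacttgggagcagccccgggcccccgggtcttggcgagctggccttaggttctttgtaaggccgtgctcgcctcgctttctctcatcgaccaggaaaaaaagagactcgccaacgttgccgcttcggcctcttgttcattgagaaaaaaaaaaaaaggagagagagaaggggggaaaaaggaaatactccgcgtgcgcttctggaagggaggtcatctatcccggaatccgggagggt
Dusp6: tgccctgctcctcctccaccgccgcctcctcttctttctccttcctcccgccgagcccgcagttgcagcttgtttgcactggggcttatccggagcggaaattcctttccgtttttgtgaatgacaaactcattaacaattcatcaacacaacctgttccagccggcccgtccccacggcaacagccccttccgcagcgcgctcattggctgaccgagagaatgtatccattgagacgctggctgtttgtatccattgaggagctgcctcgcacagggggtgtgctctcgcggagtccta
Dusp5: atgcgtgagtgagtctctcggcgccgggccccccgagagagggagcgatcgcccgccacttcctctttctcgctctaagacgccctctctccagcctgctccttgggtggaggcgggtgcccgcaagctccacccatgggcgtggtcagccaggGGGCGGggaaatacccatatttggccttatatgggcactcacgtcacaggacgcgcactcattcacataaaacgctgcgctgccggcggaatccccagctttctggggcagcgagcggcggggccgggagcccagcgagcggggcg
The windows of Spry2 and Dusp6 were 62.7% and 57.3% G and C, and that of Dusp5 66.7%, where the median over 32851 mouse promoters was 52.7%. Exact matches on both strands were sought for an ETS core (CCGGAAG), an AP-1 site (TGACTCA), a cyclic AMP response element (TGACGTCA), an E-box (CACGTG) and the GC box, none of which contains another. Windows of this length were searched for 7 of the 10 genes, with 2 starts for Etv5, and those of Spry4, Dusp4 and Etv4 were not searched. None of the windows held any of the first 4 motifs, which occur in 8.86%, 5.2%, 1.79% and 7.15% of all promoters. The GC box was in 5 of the 7 genes (Spry1, Spred1, Spred2, Dusp5 and Etv5) and in 35.7% of all promoters. These are matches of letters only.

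Among the Sprouty genes, Spry2 and Spry4 were higher in MOSE-L cells and Spry1 was too dim to test. Spry2 encodes an inhibitor that is phosphorylated after receptor activation and binds the adaptor that recruits the RAS activator SOS. Its signals were 1888, 2357 and 1366 in MOSE-L cells, against 620.3, 805 and 672 in MOSE-E cells. The lowest MOSE-L array was still above the highest MOSE-E array. Spry2 averaged 1870.2 ± 496 in MOSE-L and 699 ± 95 in MOSE-E cells (SD, n = 3 each), a log2 change of 1.33 ± 0.28 (SE, adjusted p = 0.00731). In MOSE-I cells it had 888, 409 and 479, a wider spread than in MOSE-E cells, with replicate 1 above all MOSE-E arrays and the other replicates below them. The MOSE-L level was also higher than that of MOSE-I cells, by 1.62 ± 0.28 (adjusted p = 0.00413). MOSE-I and MOSE-E cells differed by -0.29, within the spread of the arrays (adjusted p = 0.526). A second Spry2 probe set reached at most 102 on any array and was not tested.

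Spry4, a related inhibitor of the same route, had signals of 961, 972 and 794 in MOSE-L cells, against 376, 331 and 472 in MOSE-E cells. All 3 MOSE-L arrays were higher than every array of the other stages. The log2 change was 1.12 ± 0.24 (SE, adjusted p = 0.00790), and with 200 in place of 50 added before the logarithm it was 0.91, under the minimum for a call. MOSE-I cells had the lowest values, 181, 312 and 347, and MOSE-L exceeded them by 1.57 ± 0.24 (adjusted p = 0.00219). The change of -0.45 between MOSE-I and MOSE-E cells was not called (adjusted p = 0.233). The other 3 Spry4 probe sets had signals of 280.4 or less throughout. Fitted without the filter, they gave changes of 0.81, 0.15 and -0.037 between MOSE-L and MOSE-E cells, none of which passed the test. Against MOSE-I cells 2 of the 3 had a negative change (-0.63 and -0.37), opposite to the brightest probe set, so the Spry4 result rests on 1 probe set.

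Spry1 had signals of 249, 386 and 414 in MOSE-E cells, 262, 124 and 181 in MOSE-I cells and 251, 306 and 272 in MOSE-L cells. Its highest signal, 414, was short of the filter. Without the filter its change was -0.27 between MOSE-L and MOSE-E cells (adjusted p = 0.678) and -0.76 between MOSE-I and MOSE-E cells (adjusted p = 0.184). Unlike Spry2 and Spry4, it therefore had its highest mean in MOSE-E cells, a difference that was not past the test.

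Neither Spred gene was called in any comparison. In their brightest probe sets both had all 3 MOSE-I arrays above all MOSE-E arrays, as did 23.4% of all tested genes. In the dimmest tested Spred1 probe set the arrays of these stages overlapped (0.20). Spred1 had signals of 2722, 2419 and 2689.7 in MOSE-I cells, against 1972, 1580.0 and 1982 in MOSE-E cells. The 3 MOSE-L arrays, at 2273, 3132 and 2543, also lay above all MOSE-E arrays and overlapped those of MOSE-I cells. The log2 change was 0.50 ± 0.19 between MOSE-I and MOSE-E cells (adjusted p = 0.105) and 0.51 ± 0.19 between MOSE-L and MOSE-E cells (adjusted p = 0.0665), neither past the threshold. MOSE-L and MOSE-I cells differed by 0.011, with an interval from -0.40 to 0.42. Its other tested probe sets gave 0.78 (adjusted p = 0.0138) and 0.93 (adjusted p = 0.0204) between MOSE-L and MOSE-E cells, past the adjusted p but under the minimum change. The dimmer of these had signals of 461, 364 and 505 in MOSE-L cells, against 194, 251 and 306 in MOSE-I cells, without overlap, but that change of 0.72 was not called (adjusted p = 0.0509). This probe set passed the filter through MOSE-L replicate 3 alone, so its changes in MOSE-L cells are a description. Of the 5 Spred1 probe sets below the filter, 4 had a positive change over MOSE-E cells in MOSE-L cells, while none passed the test.

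Spred2, the second member of this family, had signals of 835, 993 and 1306 in MOSE-L cells, against 565, 695 and 554 in MOSE-E cells. These arrays did not overlap, and the change of 0.73 ± 0.19 passed the adjusted p (0.0202) but not the minimum change. Intermediate cells had 909, 810.5 and 824, above every MOSE-E array, with a change of 0.46 ± 0.19 over MOSE-E cells (adjusted p = 0.139). The MOSE-L arrays exceeded these by 0.27, with an interval from -0.16 to 0.69. The order of the means was MOSE-E, MOSE-I and MOSE-L, of which the last pair did not differ beyond the spread. Fitted without the filter, the other Spred2 probe sets gave 0.60, 0.36, -0.087 and 0.63 between MOSE-L and MOSE-E cells. Between MOSE-I and MOSE-E cells they gave 0.41, -0.57, 0.48 and -0.31, and none of these passed the test.

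Of the phosphatases, Dusp6 was higher in MOSE-L cells than in both other stages, Dusp4 was higher in MOSE-L than in MOSE-I cells, and Dusp5 was not higher in either comparison. Dusp6 encodes a cytoplasmic phosphatase selective for ERK. It had signals of 5380.1, 6976 and 5203 in MOSE-L cells, against 2985, 2296 and 2257 in MOSE-E cells. Every MOSE-L array was above every array of the other stages. The change was 1.20 ± 0.24 (SE, adjusted p = 0.00536). Its MOSE-I signals of 3333, 1894 and 2937 overlapped those of MOSE-E cells (0.086, interval -0.44 to 0.61), and MOSE-L cells exceeded them by 1.12 ± 0.24 (adjusted p = 0.00994). That last call depended on single arrays, since the change was 0.88 when MOSE-I replicate 2 was left out and 0.99 when MOSE-L replicate 2 was left out.

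Dusp4 encodes a nuclear phosphatase that acts on ERK and other MAP kinases. Its signals were 773, 1394 and 2118 in MOSE-L cells, against 926, 581 and 512 in MOSE-E cells, so that MOSE-L replicate 1 lay below MOSE-E replicate 1. The change of 0.97 ± 0.33 was just outside both limits (adjusted p = 0.0529). It was called when MOSE-E replicate 1 (1.20, adjusted p = 0.0374) or MOSE-L replicate 1 (1.33, adjusted p = 0.00989) was left out, and was 0.64 without MOSE-L replicate 3. MOSE-I cells had lower signals, 517, 359 and 408. The MOSE-L level was higher than these on every array, by 1.53 ± 0.33 (adjusted p = 0.0104). Over MOSE-E cells the MOSE-I change was -0.57 (adjusted p = 0.272), with 1 MOSE-I array just above the lowest MOSE-E array.

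Dusp5, a nuclear phosphatase specific for ERK, was the only tested member with a negative change between the late and early stages. Its signals were 665, 469 and 305 in MOSE-L cells, against 481, 699.9 and 849 in MOSE-E cells, and the groups overlapped. The change of -0.48 ± 0.27 did not pass the test (adjusted p = 0.214). MOSE-I signals of 442, 430.4 and 457 lay below every MOSE-E array with a small spread, but the change of -0.53 did not pass either (adjusted p = 0.221). MOSE-L and MOSE-I cells differed by 0.045, with an interval from -0.56 to 0.65. MOSE-L replicate 3 had the lowest Dusp5 signal of all 9 arrays and the highest Dusp4 signal.

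The ETS factor genes were dim. Etv5 had signals of 276, 317 and 508 in MOSE-L cells, against 277, 200.1 and 239.8 in MOSE-E cells, with MOSE-L replicate 1 just under MOSE-E replicate 1. The change of 0.50 ± 0.28 did not pass the test (adjusted p = 0.214). MOSE-I cells had 241, 179 and 259, all below the MOSE-L arrays, and the difference of 0.57 was not called either (adjusted p = 0.150). Fitted without the filter, its other probe sets gave MOSE-L changes of 0.34 and 0.60 over MOSE-E cells. Over MOSE-I cells they gave -0.025 and 0.77, and none of these passed the test. Etv4 was near the low end of the array, with 91.7, 26.0 and 21.1 in MOSE-E cells, 90.9, 25.9 and 36.4 in MOSE-I cells and 242, 325 and 75.1 in MOSE-L cells. MOSE-L replicates 1 and 2 stood above the other 7 arrays, and replicate 3 was within their range. Without the filter the change of Etv4 was 1.39 ± 0.44 between MOSE-L and MOSE-E cells (adjusted p = 0.0887) and 1.30 between MOSE-L and MOSE-I cells (adjusted p = 0.105). Its dimmer probe set gave 0.56 and 0.32 in these comparisons, neither past the test.

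The 3 comparisons differed in how many of the 8 tested genes they called. Against MOSE-I cells, 4 genes were called higher in MOSE-L cells (Spry2, Spry4, Dusp4 and Dusp6) and none lower, where 7.38% and 6.04% of all tested genes were called. Without Spry4, which the filter admitted through its MOSE-L arrays alone, 3 genes were called higher, Spry2, Dusp4 and Dusp6. All 8 changes were above 0, although those of Spred1 and Dusp5 were at most 0.045 and changed sign with single arrays or another scaling. The arrays of 5 genes were higher in MOSE-L cells with no overlap in this comparison (20.7% of all tested genes) and of 5 genes against MOSE-E cells (23.1%). Against MOSE-I cells these were Spry2, Spry4, Dusp4, Dusp6 and Etv5, and against MOSE-E cells Spry2, Spry4, Spred1, Spred2 and Dusp6. Because Spry4 and Etv5 passed the filter through MOSE-L arrays alone, both counts are a description. Spry2, Spry4 and Dusp6 were in both of these groups. By the methods' t-test with Benjamini-Hochberg adjustment, which takes the variance of each probe set alone, 1 gene was called higher over MOSE-E cells (1.16% of all tested genes) and 0 over MOSE-I cells (0.0126%). That gene was Spry4, whose passing of the filter rested on MOSE-L arrays, so its call is not support for a difference in the set. Between MOSE-I and MOSE-E cells 0 genes were called by limma, where 2.29% of all tested genes were called higher and 3.61% lower. With no overlap of the arrays, 2 of the 8 genes (Spred1 and Spred2) had all MOSE-I signals above those of MOSE-E cells and 1 (Dusp5) had them below, where 23.4% and 17.8% of all tested genes lay apart in these directions. At an unadjusted p of 0.05 this comparison gave 2 genes higher, Spred1 and Spred2, and none lower, where 17% and 12.8% of all tested genes passed in these directions. The methods' t-test without adjustment also gave 2 higher and none lower, beside 18.1% and 12.6% of all tested genes. The median change of the 8 genes was 0.85 between MOSE-L and MOSE-E cells, 0.84 between MOSE-L and MOSE-I cells and -0.18 between MOSE-I and MOSE-E cells, beside 0.031, -0.018 and 0.034 for all tested genes. These comparisons share arrays, and the medians cover only the genes that passed the filter.

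**Figure D2:**
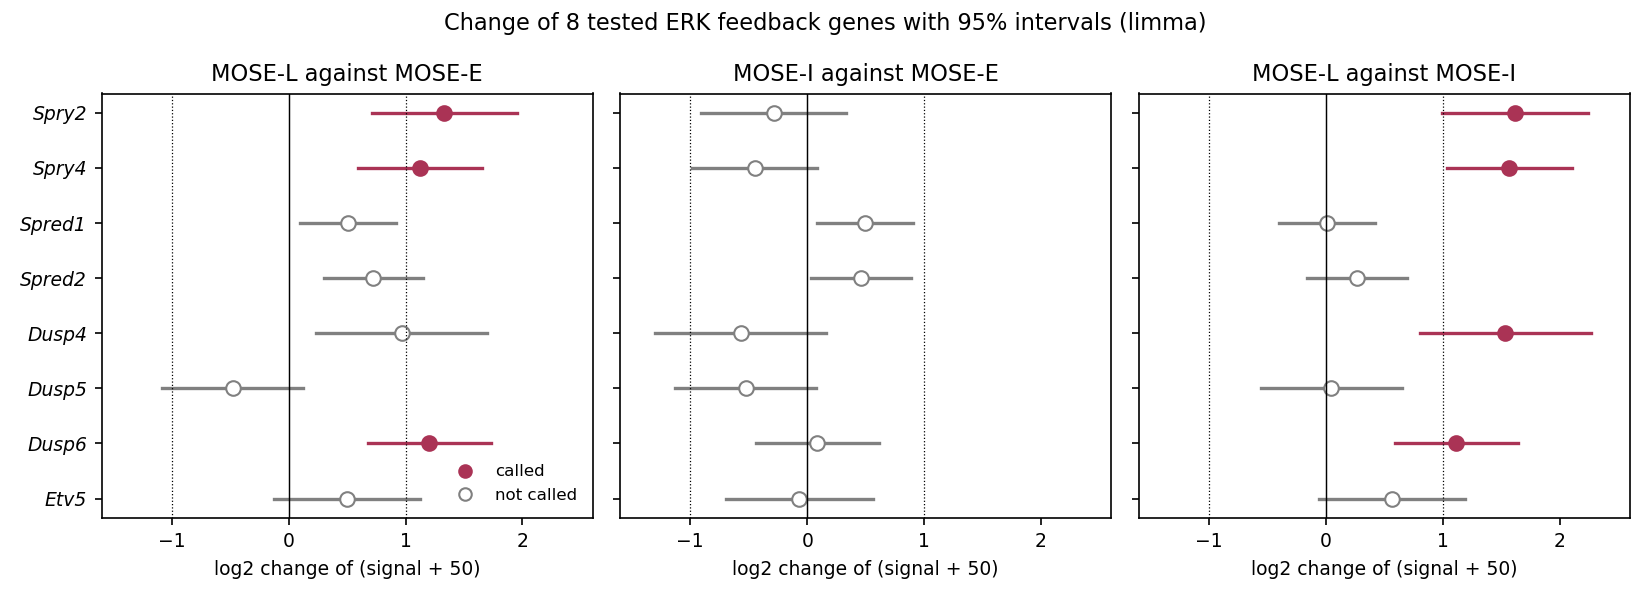
Log2 change of (signal + 50) with its 95% interval from limma for the 8 tested genes, for the 3 pairs of stages (n = 3 arrays each), MOSE-L over MOSE-E on the left, MOSE-I over MOSE-E in the middle and MOSE-L over MOSE-I on the right. Filled points were called, with an adjusted p no higher than 0.05 beyond the dotted lines at a change of 1 in size: 3 genes on the left, 0 in the middle and 4 on the right. Spry4, filled on the left and on the right, passed the filter through its MOSE-L arrays alone.

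Leaving out each array in turn kept between 3 and 4 genes called higher in MOSE-L cells against MOSE-E cells, and between 3 and 4 against MOSE-I cells. Spry2 ranged from 1.15 to 1.54, Spry4 from 1.02 to 1.24 and Dusp6 from 1.07 to 1.33 over MOSE-E cells, and each was called in all 9 of these fits. Dusp4 had the widest range of the called or nearly called genes, 0.64 to 1.33. When MOSE-E replicate 1, MOSE-I replicate 1 and MOSE-L replicate 3, the arrays farthest from their own stages, were left out together, 3 genes were still called higher over MOSE-E cells, and Spry2 had a change of 1.46. Spry4, which passed the filter through its MOSE-L arrays alone, is in each of these counts.

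**Figure D3:**
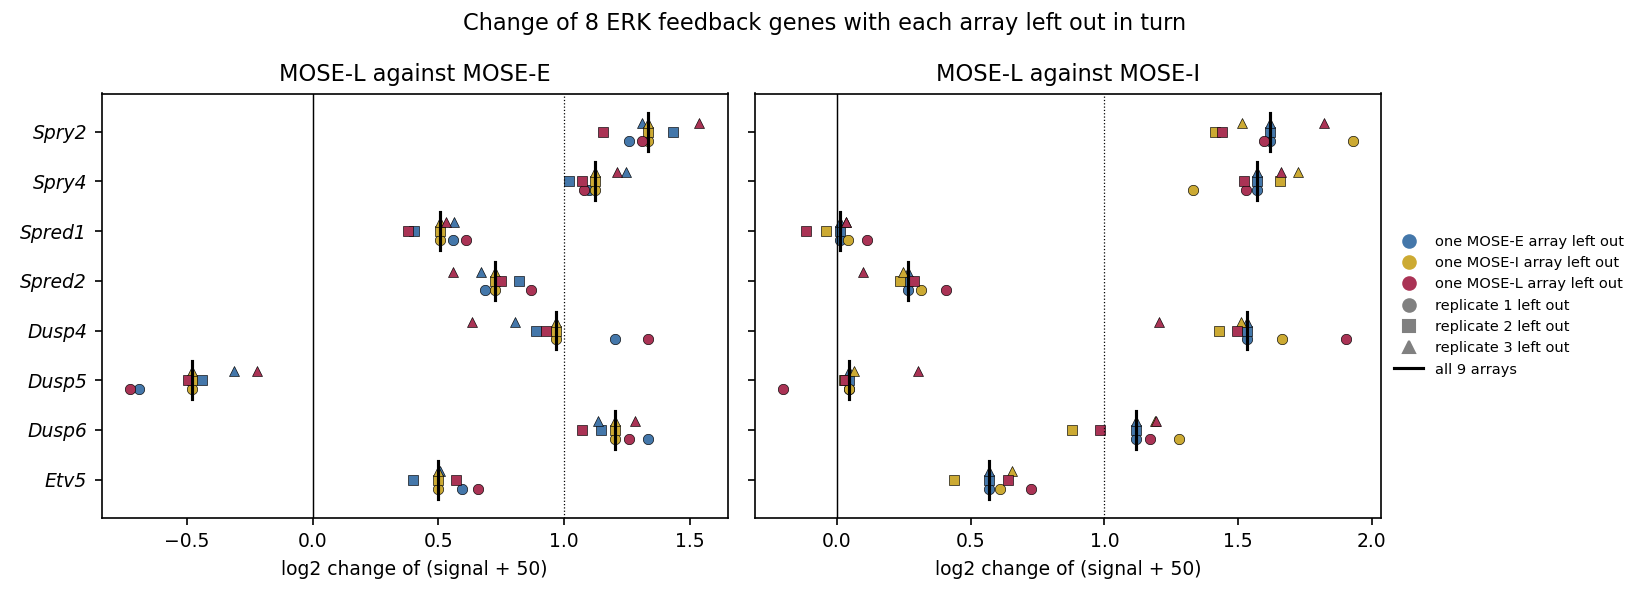
Log2 change of (signal + 50) of the 8 tested genes with each of the 9 arrays left out in turn, coloured by the stage and shaped by the replicate left out, beside the value from all 9 arrays (black line). Spry2, Spry4 and Dusp6 stay right of 1 (dotted line) against MOSE-E cells, while Dusp4 runs from 0.64 to 1.33.

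The members did not all follow one course over the 9 arrays. Pearson correlations of log2(signal + 50), given as a description because the arrays fall into 3 stages, were highest for Dusp6 with Spry2 (0.92) and for Dusp4 with Etv5 (0.90). Spry4 correlated with Spry2 at 0.78 and with Dusp6 at 0.76. Dusp5 had no positive correlation with any other tested member, and its lowest was with Spred2 (-0.74). Of all 7952 tested genes, those with a course most like Spry2 were Aqp5 (0.99), a water channel gene, St3gal6 (0.96), a sialyltransferase gene, and Usp54 (0.96). Those most like Dusp6 were Pced1b (0.98), Dhcr7 (0.98), which encodes the last enzyme of cholesterol synthesis, and St3gal4 (0.95). Flt4 (0.98), a receptor of vascular endothelial growth factors, Trp53inp2 (0.97) and Fam160b1 (0.96) were most like Spry4.

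The rest of the pathway was described by lists of genes. Of all tested genes, 8.11% were called higher and 7.49% lower in MOSE-L against MOSE-E cells. In the cascade from adaptors to ERK itself, 1 of 12 tested genes of 19 listed was called higher in this comparison, near that share, and none lower. It was Map2k1, the gene of a MEK kinase, with mean signals of 4129 ± 1064 in MOSE-L and 1906 ± 198 in MOSE-E cells (1.07 on the log2 scale, adjusted p = 0.00687), and it was under a limit without MOSE-E replicate 2 or MOSE-L replicate 3. The median change of this list, 0.0063, was near that of all tested genes, and that of the feedback genes was 0.85. Sos2, a RAS activator, was lower in MOSE-I than in MOSE-E cells (-1.28, adjusted p = 0.00798) and higher in MOSE-L than in MOSE-I cells (1.41, adjusted p = 0.00189). Sos2 was chosen for mention after its values were seen, and its MOSE-I call was lost without MOSE-E replicate 2 or 3.

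Upstream of RAS, 3 of 14 tested receptor and ligand genes of 24 listed were called higher, and 1 lower, in MOSE-L cells against MOSE-E cells. The shares of all tested genes were 8.11% higher and 7.49% lower. Higher were the ligand genes Btc (betacellulin, 3.71, adjusted p = 3.04e-04) and Tgfa (1.73, adjusted p = 7.47e-04), both ligands of the EGF receptor, and the FGF receptor gene Fgfr1 (1.91, adjusted p = 0.00633). Fgfr2, another FGF receptor gene, was lower (-1.43, adjusted p = 0.0122), but not past the threshold without MOSE-E replicate 2, and 3 genes of the list were called lower without MOSE-E replicate 1. Btc, Tgfa and Fgfr1 were over 500 on MOSE-L arrays only, with no signal above 357 in the other stages, so the filter favoured the difference in all 3 and their count is a description. Tgfa had mean signals of 662 ± 11.7 in MOSE-L and 166 ± 16.7 in MOSE-E cells, and Btc had 3095 ± 2229 in MOSE-L and 173 ± 114 in MOSE-E cells.

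In MOSE-L against MOSE-E cells 8.11% of all tested genes were called higher and 7.49% lower. Other inhibitors of RAS and ERK included 2 of 12 tested genes of 20 listed that were called higher in this comparison, and none lower. They were Il17rd, whose product Sef restrains FGF signalling (1.65, adjusted p = 0.0133), and Lrig1, which lowers EGF receptor levels (1.43, adjusted p = 0.0273). Il17rd lost its call without MOSE-E replicate 2, and Lrig1 without MOSE-E replicate 1 or 3 or MOSE-L replicate 2 or 3. Both passed the filter through MOSE-L arrays alone, their highest signals in the other stages being 275 for Il17rd and 452 for Lrig1, so this count too is a description. The median of this list was 0.52. Of 12 tested genes of 16 listed as other ERK responsive genes, 1 was called higher (Ier3, an immediate early gene, 1.25, adjusted p = 0.00436) and 1 lower (Epha4, an ephrin receptor gene, -1.15, adjusted p = 0.0243), and the median was -0.039. Both of these counts are near the shares of all tested genes, 8.11% higher and 7.49% lower. Epha4 was over 500 only in MOSE-E cells and lost its call without MOSE-E replicate 2 or 3 or MOSE-L replicate 1 or 3.

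Among genes of proliferation, 8 of 11 tested genes of 12 listed were called lower in MOSE-L cells against MOSE-E cells and none higher, with a median of -1.68. The shares of all tested genes were 7.49% lower and 8.11% higher. Rrm2, a subunit of ribonucleotide reductase, was at 5241 ± 3958 in MOSE-L and 18500 ± 1003 in MOSE-E cells (-2.27, adjusted p = 0.0178). Ccna2 (-2.24), Mki67 (-2.12) and Mcm5 (-1.93) were lower as well. This count was not stable, with 0 genes called without MOSE-E replicate 2 or 3, 3 without MOSE-E replicate 1, 5 without MOSE-L replicate 3 and 10 without MOSE-L replicate 2. Without MOSE-L replicate 3, which had the highest Actb ratio, Top2a (-0.87), Aurkb (-0.75) and Mcm2 (-0.67) lost their calls. No proliferation gene was called between MOSE-I and MOSE-E cells. The study refers to earlier work in which MOSE-L cells had an increased growth rate. Growth was not measured on these arrays, and its relation to these mRNA levels was not tested.

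In MOSE-I cells against MOSE-E cells the other lists held few calls. They were 1 of 12 cascade genes lower, 1 of 14 receptor and ligand genes higher, 1 of 12 other inhibitors higher and 1 lower, and 2 of 12 other ERK responsive genes lower. Over all tested genes 2.29% were called higher and 3.61% lower. The receptor gene, Pdgfrb, passed the filter through MOSE-I arrays alone, and the inhibitor gene called lower, Dusp8, through MOSE-E arrays alone. The filter favoured the difference in both, so their counts are a description. In MOSE-L cells against MOSE-I cells the calls were 1 of 12 cascade genes higher, 5 of 14 receptor and ligand genes higher and 3 lower, and 3 of 12 other inhibitors higher. Another 1 of 12 other ERK responsive genes was higher and 10 of 11 proliferation genes were lower. Over all tested genes 7.38% were called higher and 6.04% lower. Of the receptor and ligand genes, 4 of the 5 called higher and 1 of the 3 called lower had passed the filter in 1 stage alone. Of the 3 other inhibitors called higher, 2 (Il17rd and Lrig1) had passed it through MOSE-L arrays alone. The filter favoured the difference in these genes, so these counts too are a description. The feedback genes had 0 and 4 calls in these comparisons, all 4 of them higher, with Spry4 admitted by the filter through MOSE-L arrays alone.

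Most of these list counts moved when single arrays were left out. Against MOSE-E cells each of the MOSE-I counts was 0 without MOSE-E replicate 2 or 3. The receptor count was also 0 without MOSE-I replicate 2 or 3 and 2 without MOSE-I replicate 1, that of other ERK responsive genes was 0 without MOSE-I replicate 2, that of inhibitors higher was 0 without MOSE-I replicate 1 or 3, and that of inhibitors lower was 0 without MOSE-I replicate 3 and 2 without MOSE-E replicate 1. Against MOSE-I cells the count of proliferation genes lower in MOSE-L cells, 10 with all arrays, ran from 3 to 11. It was 3 if replicate 3 of the MOSE-L cells or replicate 1 or 3 of the MOSE-I cells was omitted, 5 if MOSE-I replicate 2 was, and 6 if MOSE-E replicate 2 or 3 was. The other inhibitors higher ran from 1 to 4, with 1 without MOSE-I replicate 3 or MOSE-L replicate 2, and the receptor and ligand genes lower from 1 to 3, with 1 without MOSE-I replicate 3. The receptor and ligand genes higher ran from 4 to 6, of which 4 of the 5 called with all arrays had passed the filter in 1 stage alone. The other ERK responsive genes higher ran from 1 to 2, with 2 without MOSE-L replicate 1, and the cascade count stayed at 1.

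**Figure D4:**
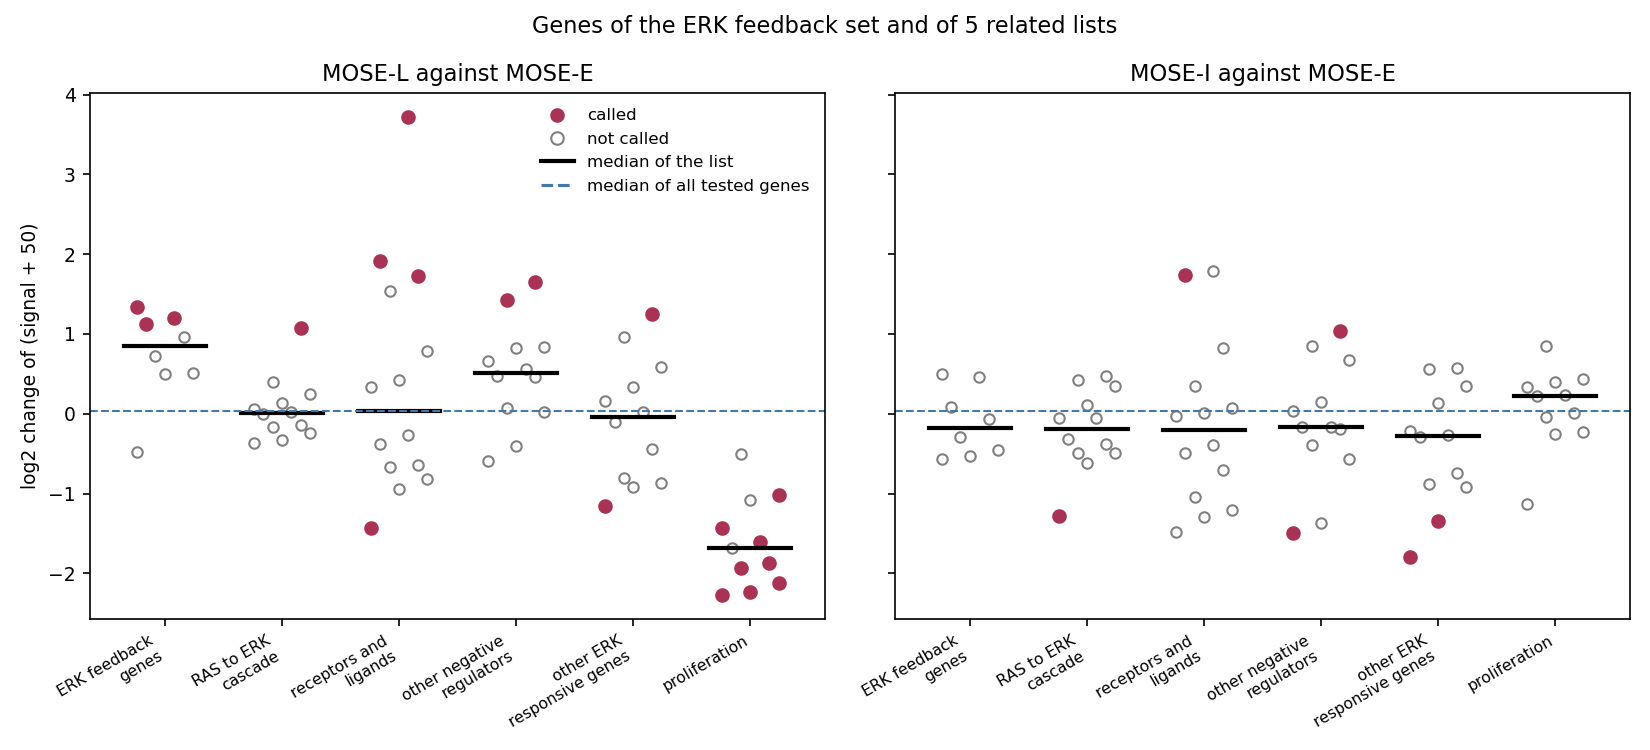
Log2 change of (signal + 50) of every tested gene of the feedback set and of 5 related lists, in MOSE-L against MOSE-E and MOSE-I against MOSE-E cells. Filled points were called, black bars are list medians and the dashed line is the median of all 7952 tested genes. The feedback genes have a median of 0.85 in the left panel and -0.18 in the right, and the proliferation genes -1.68 and 0.23.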

How the data were processed

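Total RNA of 9 MOSE cultures was hybridised by the authors to Affymetrix whole-genome mouse arrays. The deposited intensities were linear MAS 5.0 signals per probe set, scaled by the authors to a trimmed mean of 500. Precision is limited by the 3 arrays of a stage. The annotation table gave 1 gene for 34958 probe sets, several for 932 and none for 9211, and probe sets with several genes were not used for a gene. Control probe sets (64) were left out, 13845 probe sets with a highest signal over 500 were kept, and log2(signal + 50) was fitted in limma 3.58.1 under R 4.3.3, with 1 mean per stage over all 9 arrays and a variance that follows the mean signal. P-values were adjusted by Benjamini-Hochberg over these probe sets. The fit was tested on simulated data. Each gene took its brightest probe set past the filter. Genes were named by a rule: all members, from each list up to 4 called genes, taken by the size of their MOSE-L to MOSE-E change, and the 3 genes with the most similar course to each of the 3 most changed members. The members and lists were chosen with earlier results of these data known, and Spry2 and Map2k1 are named in the study's own tables, so their direction is not independent evidence. Promoter sequences came from RefSeq (GRCm38.p6). Alternatives were another added value (1 or 200), normalization, filter, variance, probe set rule or threshold, only the stages compared, the methods' t-test, a replicate block and arrays left out. Protein and imaging experiments were not analysed here.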

Additional observations from a re-analysis of the deposited data

How the results depend on the processing

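Over 24 alternatives, the count of feedback genes called higher in MOSE-L against MOSE-E cells (3 with all arrays) changed by over 1.5 times only with the methods' t-test after Benjamini-Hochberg adjustment, which called 1, and against MOSE-I cells (4 with all arrays) it called 0. That test also called 147 probe sets higher and 267 lower between MOSE-L and MOSE-E cells, against 1056 and 1021 in limma, 5 and 10 between MOSE-I and MOSE-E cells, against 273 and 520, and 3 and 7 between MOSE-L and MOSE-I cells, against 1115 and 810. Without a minimum fold these 6 counts were 1841, 1826, 629, 721, 1834 and 1927, and at an adjusted p of 0.01 they were 664, 640, 66, 145, 494 and 374. Over the fits that left out 1 array, the counts of feedback genes higher ran from 3 to 4 against MOSE-E and from 3 to 4 against MOSE-I cells, and all others were 0. Probe sets called between MOSE-I and MOSE-E cells ran from 40 to 494 higher and from 87 to 739 lower in these fits, with 40 and 87 without MOSE-E replicate 2. Without MOSE-L replicate 3, 671 were higher and 485 lower in MOSE-L against MOSE-I cells. Without the 3 farthest arrays, a setting chosen after seeing the data, 816 were higher and 995 lower in MOSE-I against MOSE-E cells and 685 higher in MOSE-L against MOSE-I cells, and with 200 added 179 were higher in MOSE-I against MOSE-E cells. Changes near 0 turned sign. Between MOSE-L and MOSE-I cells Dusp5 was -0.079 after quantile normalization and ran from -0.20 (MOSE-L replicate 1 left out) to 0.30, and Spred1 was -0.033 after median centring and ran from -0.11 (MOSE-L replicate 2 left out, and -0.042 with MOSE-I replicate 2 left out) to 0.11. Between MOSE-I and MOSE-E cells Dusp6 ran from -0.077 (MOSE-I replicate 1 left out) to 0.32, and Etv5 from -0.17 to 0.061 (MOSE-I replicate 2 left out, and 0.025 with MOSE-E replicate 1 left out). The causes were not tested. Dusp4 lost its call against MOSE-I cells at an adjusted p of 0.01 and in the methods' t-test without adjustment. The labels do not say whether the replicate numbers pair the arrays. Of 9 same-numbered pairs, 2 correlated over 0.1 (range -0.11 to 0.41), and 4 of 9 arrays correlated best with their own number. With 3 arrays a stage these values cannot decide the question. With the replicate number as a block, 3 feedback genes were called higher in MOSE-L against MOSE-E cells, 0 in MOSE-I against MOSE-E cells and 4 in MOSE-L against MOSE-I cells, and none lower. Spry4 is among these 3 and 4 genes and in each MOSE-L count with 1 array left out, and it passed the filter through its MOSE-L arrays alone. Signals near background limit Spry1, Etv4 and Etv5, and 32.4% of all signals lay under the added 50.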
